A study of Mus musculus with 6 samples.

Results

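The genes described here are 8 genes known from plasmacytoid DCs (pDCs): Siglech, Tcf4, Ccr9, Ly6d, Runx2, Klk1, Spib and Pacsin1. They were taken by symbol, and each was matched to 1 of the 44678 Ensembl genes in the deposited count tables. The study compared 3 libraries of WT mice with 3 of miR-144/451 KO mice, whose deletion removes both microRNA precursors and is carried by every cell of the animal. Both genotypes were untreated young adults on the C57BL/6J background, and the RNA came from spleen leukocytes labelled CD8a+. CD8a sits on cytotoxic T cells and on subsets of DCs, pDCs among them, and nothing in the sources says whether the RNA of 1 library came from 1 mouse or from pooled mice. Libraries are numbered WT 1 to 3 and KO 1 to 3. If the libraries of a genotype are not separate mice, the p-values measure only the spread between these libraries.

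pDCs are the DCs that sense viral nucleic acids through TLR7 and TLR9 in endosomes and answer with type I interferon. Their identity depends on the E protein TCF4, also called E2-2, which is balanced against its inhibitor ID2, and on the Ets factor SPIB and the Runt factor RUNX2. Several genes of this program are shared with lymphocytes. B cells also use Tcf4, Spib and Ly6d, and T cells also use Ccr9, while Siglech is among the more pDC-restricted surface genes of the mouse.

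The deleted microRNAs are shown with their seeds (bases 2 to 8, in capitals), because the seed sets which transcripts they can pair with. The mature sequences are RefSeq's, lie on the plus strand of chromosome 11 in GRCm38.p6 and share no seed with one another.
mmu-miR-144-5p, chr11:78073010-78073032: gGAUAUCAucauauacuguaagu
mmu-miR-144-3p, chr11:78073047-78073066: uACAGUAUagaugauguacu
mmu-miR-451a, chr11:78073186-78073207: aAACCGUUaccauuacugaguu
Mir144 and Mir451a had 0 counts in each of the 6 libraries, WT included, so these counts give no check of the deletion.

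The longest annotated 3′-UTR of each of the 8 genes was searched for the 7 letters that pair with a seed, on the transcript strand. Among 11550 tested genes with a 3′-UTR, 13.4% held the match for miR-144-3p (ATACTGT), 5.58% that for miR-144-5p (TGATATC) and 1.91% that for miR-451a (AACGGTT). Ccr9 held 1 match for miR-144-3p and 1 for miR-144-5p in a 3′-UTR of 3966 bases. Tcf4 held 1 match for miR-144-5p in 6007 bases. The other 6 genes held none, in 3′-UTRs of 49 to 3904 bases. The median 3′-UTR of the tested genes had 1183 bases, so those of Ccr9 and Tcf4 were longer than most and the shares over all genes are not matched for length. Both windows of Ccr9 are given on the plus strand of GRCm38 with the match in capitals.
Ccr9, miR-144-3p match, chr9:123782254-123782282: aagtataagctATACTGTcttagttactg
Ccr9, miR-144-5p match, chr9:123783332-123783360: aggaagacaccTGATATCaacctctgtgg
A match is a feature of the sequence and was not tested as a functional site.

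Each library held between 8143971 and 8876570 counts, and 3 counts corresponded to 0.338 to 0.368 CPM (counts scaled to a common library size), a floor that covers counting error only. All values below are CPM scaled with TMM factors, which lay between 0.989 and 1.01. The libraries differed in cell markers within each genotype. The summed level of 10 B cell markers (Cd79a, Ms4a1 and others) ran from 1702 to 2997 CPM in WT and from 1466 to 3411 CPM in KO libraries. The summed level of 10 T cell markers (Cd8a, Cd3e and others) ran from 3901 to 5359 CPM in WT and from 2857 to 4945 CPM in KO libraries. Cd8a itself had 693 to 1040 CPM in WT and 475 to 1028 CPM in KO libraries. None of these 20 markers was at 0 in any library. B cell markers were highest in KO 2, KO 1 and WT 1, and T cell markers were lowest in the same libraries. In bulk RNA, fewer cells of a type and less RNA per cell cannot be told apart.

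None of the 8 pDC genes passed the threshold between KO and WT when edgeR's quasi-likelihood p-values were adjusted by Benjamini-Hochberg (edgeR adjusted p from here on). Of 13024 tested genes, 4 (0.0307%) had an adjusted p-value under 0.05. Before adjustment, 814 genes (6.25%) and 0 of the 8 had a p-value under 0.05, and DESeq2 and limma voom also gave 0 of the 8 at this unadjusted level. Separate ranges in KO and WT were found for 11.5% of all tested genes and for 0 of the 8. Tcf4, Ly6d, Spib and Runx2 had higher fitted means in KO and Siglech, Ccr9, Klk1 and Pacsin1 had lower ones. The median log2 fold change of the 8 was 0.086, against 0.0030 over all tested genes. It was not stable in direction, at -0.027 with B cell markers as a covariate, -0.23 with T cell markers as a covariate and -0.0004 without KO 1. The plot of the 8 genes by library shows that the range within at least 1 genotype was wider than the gap between the means for all 8.

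**Figure D1:**
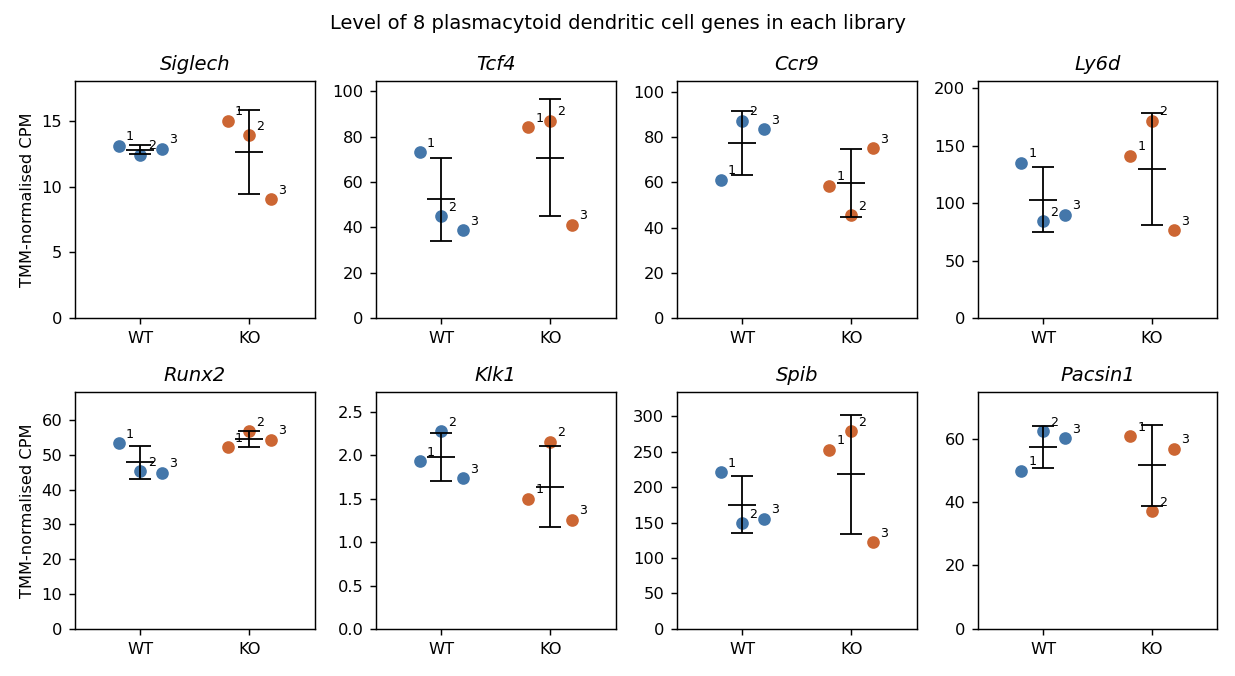
Level of each gene (TMM-normalised CPM, linear axes from 0) in WT and KO libraries, with points numbered by library and the black bars giving mean ± SD (n = 3). KO 3 sits apart from KO 1 and KO 2 for Tcf4, Ly6d and Spib, and the WT and KO ranges overlap in all 8 panels.

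Siglech encodes Siglec-H, a sialic acid-binding lectin of pDCs that signals through DAP12. It lies on chromosome 7 from 55768178 to 55778925 (GRCm38). Its level was 13.1, 12.4 and 12.9 CPM in WT 1 to 3 and 15.02, 13.9 and 9.03 CPM in KO 1 to 3. The WT libraries lay close together and inside the KO range, with KO 1 highest and KO 3 lowest of all. The means were 12.8 ± 0.348 CPM in WT and 12.7 ± 3.19 CPM in KO (SD, n = 3). The log2 fold change of KO over WT was -0.016 ± 0.21 (SE), with a 95% interval from -0.50 to 0.47 and an edgeR adjusted p = 0.992. Without KO 3 the value was 0.16, the opposite direction.

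Other genes known from pDCs lay at both ends of the range. Klra17 (Ly49Q) ran from 0.570 to 2.51 CPM, Cd300c from 0.457 to 1.96 CPM and Cox6a2 from 0.571 to 1.595 CPM over the 6 libraries. Cox6a2 did not pass the filter on low counts, and the first pair lay near it. Rpgrip1 (50.3 to 59.8 CPM), Atp1b1 (48.9 to 61.0 CPM) and Lair1 (22.7 to 41.1 CPM) of the same list were well above it. These genes were picked after their values were seen. Klk1, a tissue kallikrein protease found in pDCs, was also near the filter. It had 17, 20 and 14 counts in WT 1 to 3 and 13, 18 and 11 counts in KO 1 to 3, or 1.26 to 2.28 CPM. The 95% interval of its log2 fold change ran from -1.11 to 0.55 around -0.28 (edgeR adjusted p = 0.895), the widest of the 8 genes. Without KO 3 the value was -0.14, and without KO 2 it was -0.52.

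Tcf4, Spib and Ly6d varied together over the libraries. Siglech also had KO 1, KO 2 and WT 1 as its highest libraries and, like Spib and Ly6d, KO 3 as its lowest, over a span of 1.66-fold. Tcf4 encodes the E protein that defines the pDC lineage and that also acts in B cell development. Its level was 73.2, 44.99 and 38.9 CPM in WT 1 to 3 and 84.1, 87.1 and 41.1 CPM in KO 1 to 3. KO 1, KO 2 and WT 1 were high, and KO 3 lay within the range of WT 2 and WT 3. The KO to WT difference on the log2 scale was 0.43 ± 0.32 (SE, 95% interval -0.30 to 1.16, edgeR adjusted p = 0.841). Leaving out 1 library gave values from 0.24 (without WT 3) to 0.75 (without WT 1).

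Spib encodes an Ets factor that pDCs and B cells share. Its level was 221, 149 and 156 CPM in WT 1 to 3 and 253, 279 and 123 CPM in KO 1 to 3. Of the 6 libraries KO 2 was highest and KO 3 lowest, so both extremes were of 1 genotype. The KO to WT difference on the log2 scale was 0.31 ± 0.29 (SE, 95% interval -0.36 to 0.98, edgeR adjusted p = 0.870). It was 0.097 without KO 2 and 0.58 without KO 3. Ly6d encodes a GPI-anchored surface protein that marks B-committed progenitors, B cells and pDC progenitors. Its level was 135, 84.3 and 89.9 CPM in WT 1 to 3 and 141, 172 and 76.7 CPM in KO 1 to 3. The order of the libraries from high to low was the one seen for Spib: KO 2, KO 1, WT 1, WT 3, WT 2 and KO 3. The KO to WT difference on the log2 scale was 0.33 ± 0.29 (SE, 95% interval -0.34 to 1.003, edgeR adjusted p = 0.870). For Ly6d the value was 0.080 without KO 2 and 0.58 without KO 3.

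The 3 libraries with the most Tcf4, Spib and Ly6d were also the 3 with the most B cell markers, as the map of deviations by library shows. Tcf4 ran 2.24-fold from its lowest to its highest library. Divided by the summed B cell markers, it ran 1.23-fold. The corresponding spans were 2.28-fold and 1.24-fold for Spib, and 2.24-fold and 1.18-fold for Ly6d. Divided by the summed T cell markers instead, the spans widened to 3.85-fold, 3.94-fold and 3.88-fold. The mean deviations of monocyte, neutrophil, cDC2 and NK cell markers also had the signs of these 3 genes in all 6 libraries, and ratios to them were not computed. The same held for the mean deviations of the 3 further pDC lists described below, which are other pDC genes, pDC regulators and genes from TLR7 and TLR9 to interferon. The marker sums share the library scaling with these genes, and no p-value was computed for the likeness.

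**Figure D2:**
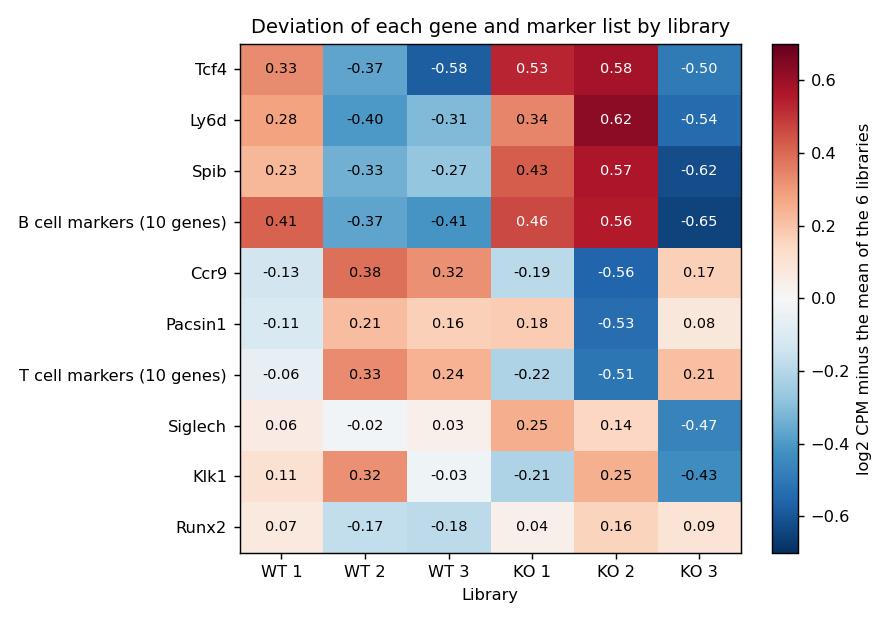
Deviation of log2 CPM from the mean of the 6 libraries for the 8 genes and for the mean of 10 B cell and 10 T cell markers (colour and printed value, columns are libraries). Tcf4, Ly6d and Spib have the sign of the B cell markers in all 6 libraries, and Ccr9 has the sign of the T cell markers in all 6. Siglech has the sign of the B cell markers in every library but WT 3, where it is 0.03.

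With the mean level of the B cell markers as a covariate, the log2 fold changes of Spib and Ly6d were 0.035 (standard error 0.090) and 0.078 (standard error 0.087). That of Tcf4 was 0.17 ± 0.086 (SE, edgeR adjusted p = 0.699). Per 1000 CPM of B cell markers, Tcf4 stood at 24.4, 25.4 and 22.9 CPM in WT 1 to 3 and at 26.7, 25.5 and 28.1 CPM in KO 1 to 3. These values did not overlap, by a margin of WT 2 against KO 2 that is small beside the SD of 1.26 in each genotype. The two-sided exact permutation test gave p = 0.1, the smallest that 3 against 3 allow, and 0.8 after adjustment over the 16 ratios computed. No other ratio of the 16 separated the genotypes.

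The promoters of Siglech and Spib are printed because TCF4 binds E-boxes (CANNTG), which are in capitals. The windows are RefSeq's for GRCm38.p6, from 250 bases before the start to 50 after it, and 6 of the 8 genes have an entry in that table.
Siglech, chr7:55767934-55768233, plus strand: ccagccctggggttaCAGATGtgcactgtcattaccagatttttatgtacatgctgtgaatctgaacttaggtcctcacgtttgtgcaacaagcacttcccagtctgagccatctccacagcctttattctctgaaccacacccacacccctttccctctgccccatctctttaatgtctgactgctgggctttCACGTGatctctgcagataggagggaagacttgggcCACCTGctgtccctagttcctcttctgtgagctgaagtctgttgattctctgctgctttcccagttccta
Spib, chr7:44532022-44532321, minus strand: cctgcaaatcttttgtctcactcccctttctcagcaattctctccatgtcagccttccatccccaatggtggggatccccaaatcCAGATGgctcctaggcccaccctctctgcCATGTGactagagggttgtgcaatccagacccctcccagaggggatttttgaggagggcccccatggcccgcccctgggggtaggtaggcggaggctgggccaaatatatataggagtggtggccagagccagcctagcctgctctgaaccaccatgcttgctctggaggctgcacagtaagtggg
The motif reads the same on both strands, and 72.3% of all 32851 promoter windows hold at least 1. Siglech and Klk1 held 3 matches each, Spib, Ccr9 and Runx2 held 2 each, and Pacsin1 held 0. The median over all windows was 1. The narrower set CAGGTG or CACCTG was found in 20.2% of all windows, and in those of Siglech, Klk1 and Ccr9.

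Ccr9 encodes the receptor for the chemokine CCL25 and is carried by pDCs and by naive CD8+ T cells. Its level was 61.2, 87.3 and 83.5 CPM in WT 1 to 3 and 58.6, 45.4 and 75.1 CPM in KO 1 to 3. KO 1 and KO 2 were the lowest, and KO 3 lay above WT 1. The KO to WT difference on the log2 scale was -0.37 ± 0.20 (SE, 95% interval -0.83 to 0.083, edgeR adjusted p = 0.817). With 1 library left out it ran from -0.59 (without KO 3) to -0.21 (without KO 2). Ccr9 ran 1.92-fold over the libraries, 1.12-fold when divided by the summed T cell markers and 3.85-fold when divided by the summed B cell markers. Per 1000 CPM of T cell markers it stood at 16.3 ± 0.670 CPM in WT and 15.8 ± 0.518 CPM in KO (SD, n = 3). With the T cell markers as a covariate, a fit added after the values were seen, its log2 fold change was -0.017 ± 0.098 (SE). Exons of a gene on the other strand, AC165425.1, cover 18.8% of the exon bases of Ccr9, and this gene had 0 to 4 counts per library. On the same strand Gm17200 covers 2.62% and had 6 to 22 counts.

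Pacsin1 encodes an F-BAR protein of endocytosis that pDCs use in their TLR7 and TLR9 responses and that neurons express strongly. Its level was 49.9, 62.3 and 60.2 CPM in WT 1 to 3 and 60.7, 37.1 and 56.8 CPM in KO 1 to 3. KO 2 stood below the other 5 libraries, which lay between 49.9 and 62.3 CPM. The KO to WT difference on the log2 scale was -0.16 ± 0.18 (SE, 95% interval -0.58 to 0.26, edgeR adjusted p = 0.889). Its span narrowed from 1.68-fold to 1.46-fold when divided by the T cell markers and widened to 3.56-fold when divided by the B cell markers. Without KO 2 the log2 fold change was 0.032, the opposite direction.

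**Figure D3:**
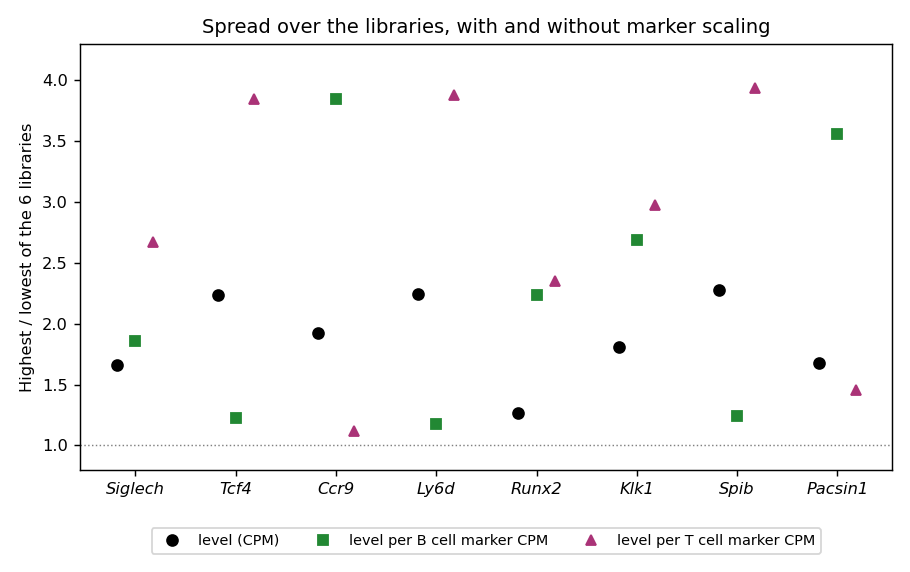
Highest over lowest of the 6 libraries for the CPM of each gene (circles), for its CPM divided by the summed B cell markers (squares) and by the summed T cell markers (triangles), linear axis. Tcf4, Ly6d and Spib are narrowest relative to B cell markers (1.18 to 1.24), Ccr9 and Pacsin1 relative to T cell markers (1.12 and 1.46), and Siglech, Runx2 and Klk1 without either.

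Runx2 encodes a Runt factor that pDCs need for their exit from bone marrow. It had the smallest span of the 8 genes (1.27-fold), with 53.4, 45.2 and 44.8 CPM in WT 1 to 3 and 52.2, 56.8 and 54.4 CPM in KO 1 to 3. KO 2 and KO 3 lay above all WT libraries, and KO 1 lay below WT 1. The KO to WT difference on the log2 scale was 0.19 ± 0.10 (SE, 95% interval -0.044 to 0.42, edgeR adjusted p = 0.817). It was 0.16 with the B cell marker covariate and 0.12 with the T cell marker covariate. Exons of Runx2os1 on the other strand cover 5.87% of the exon bases of Runx2 and had 9 to 22 counts per library.

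**Figure D4:**
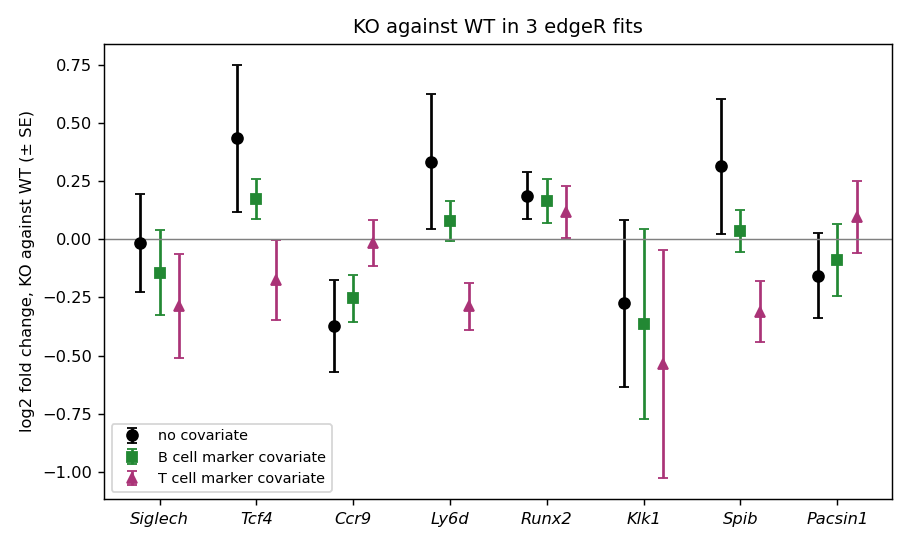
Log2 fold change of KO against WT (± standard error) from the edgeR fit without a covariate and from the fits with B cell or T cell markers as a covariate. Tcf4, Ly6d and Spib move from between 0.31 and 0.43 to between 0.035 and 0.17 with the B cell markers and below 0 with the T cell markers, Pacsin1 moves from -0.16 to 0.096 with the T cell markers, and no value passes the adjusted threshold in any of these fits.

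Levels of different genes were compared per kilobase of annotated exon. On this scale Ly6d had the highest mean level (157 CPM per kilobase over the 6 libraries), followed by Spib (68.6), Pacsin1 (8.35), Ccr9 (6.67), Runx2 (5.79), Siglech (3.76), Tcf4 (2.25) and Klk1 (1.68). The libraries of Ly6d (103 to 231 CPM per kilobase) did not overlap with those of Spib (42.7 to 97.3), nor those of Runx2 (5.07 to 6.42) with those of Siglech (2.67 to 4.44). Pacsin1, Ccr9 and Runx2 overlapped, as did Siglech with Tcf4 and Tcf4 with Klk1, and the lowest library of Ccr9 (4.42, KO 2) lay just below the highest of Siglech (4.44, KO 1). The exons of all isoforms were joined, to 27.4 kb for Tcf4 against 3.38 kb for Siglech, which lowers the value of a gene with many alternative exons. Tcf4 lies on chromosome 18 from 69343356 to 69689079, Spib on chromosome 7 from 44525993 to 44532071, Ly6d on chromosome 15 from 74762056 to 74763620 and Klk1 on chromosome 7 from 44225360 to 44229618. Ccr9 lies on chromosome 9 from 123678439 to 123784330, and on chromosome 17 Runx2 lies from 44495987 to 44814797 and Pacsin1 from 27655509 to 27711482 (GENCODE M21, GRCm38).

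Of 19 other genes known from pDCs, 16 could be tested and 0 passed the adjusted threshold. A total of 9 were higher and 7 lower in KO, with a median log2 fold change of 0.019. With B cell markers as a covariate, 5 of the 16 were higher and the median turned to -0.13. Plac8 and Cd7, which lymphocytes also express, were among the 3 with the highest mean. Their log2 fold changes were -0.19 and -0.34, and edgeR gave adjusted p = 0.870 and 0.704. Cd7 was the 1 gene of the 16 with an unadjusted p-value under 0.05, against 6.25% of all tested genes. It had 100, 103 and 103 CPM in WT 1 to 3 and 76.0, 72.6 and 92.9 CPM in KO 1 to 3. Its KO libraries lay below all WT libraries, as did those of Cd209d (log2 fold change -0.98), named after its values were seen. Cd209d had 1.24 to 1.82 CPM in WT and 0.457 to 0.960 CPM in KO. Separate ranges were found for these 2 of the 16 and for 11.5% of all tested genes. Bst2, the pDC antigen PDCA-1, chosen after its values were seen, had 65.1 to 80.6 CPM in WT and 59.7 to 76.9 CPM in KO.

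Of 12 regulators around TCF4, 11 were higher and 1 lower in KO, with a median log2 fold change of 0.41, and 0 passed the adjusted threshold. With B cell markers as a covariate, 11 were again higher and the median was 0.22. The 3 most abundant were Ikzf1 (Ikaros), Irf8, which pDCs and cDC1 share, and the E protein Tcf3. Their log2 fold changes were -0.068, 0.46 and 0.073, and edgeR gave adjusted p = 0.906, 0.712 and 0.910. Irf8, Flt3 and Zbtb46 had an unadjusted p-value under 0.05. Flt3, the receptor of the cytokine that drives DC development, had 31.9, 31.8 and 32.5 CPM in WT 1 to 3 and 44.5, 39.3 and 51.0 CPM in KO 1 to 3. Its difference on the log2 scale was 0.49 ± 0.12 (SE, edgeR adjusted p = 0.519), and the genotypes did not overlap. Separate ranges were found for 3 of the 12 (Flt3, Zbtb46 and Id2) and for 11.5% of all tested genes. Zbtb46, a factor of conventional DCs and not of pDCs, had 9.34 to 10.1 CPM in WT and 11.1 to 15.1 CPM in KO. Id2, the inhibitor of E proteins, had 108 to 125 CPM in WT and 126 to 152 CPM in KO, with a log2 fold change of 0.22 (edgeR adjusted p = 0.804). Flt3, Zbtb46 and Id2 were named after their values were seen. Markers of conventional CD8a+ DCs (cDC1) stood beside them: 8 of 8 were higher in KO with a median log2 fold change of 0.48. Their summed level was 579 to 656 CPM in WT and 814 to 888 CPM in KO, with Wdfy4 the most abundant (mean 409 CPM). Single ranges were separate for 4 of the 8, against 11.5% of all tested genes, and overlapped for Xcr1, Clec9a, Batf3 and Itgax. Of these 8, edgeR called 0, with 5 at an unadjusted p-value under 0.05 (6.25% of all tested genes), and DESeq2, which called 58 genes in all, called 2, Cadm1 and Naaa (DESeq2 adjusted p = 0.00375 and 0.0424). The mean deviation of the regulators had the sign of the B cell markers in all 6 libraries. The part of cDC1 in the values of the regulators was not tested.

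Of 20 genes from endosomal TLRs to interferon, 14 could be tested, with 11 higher and 3 lower in KO. The median log2 fold change was 0.11 and 0 passed the adjusted threshold, nor did any have an unadjusted p-value under 0.05. With B cell markers as a covariate, 12 of the 14 were higher and the median was 0.069. Unc93b1, the chaperone that carries TLR7 and TLR9 to endosomes, had a log2 fold change of 0.32 (edgeR adjusted p = 0.859). For Ifnar1 and Irak1 these values were -0.031 and 0.068 (edgeR adjusted p = 0.957 and 0.895). Tlr9, chosen after its values were seen, had 42.6, 35.9 and 36.2 CPM in WT 1 to 3 and 54.9, 67.0 and 24.1 CPM in KO 1 to 3, with the same 3 libraries high as for Spib. Ifna1, Ifna2, Ifna4, Ifna5, Ifna6 and Ifnb1 had 0 counts in each library, which leaves levels up to the floor of 3 counts possible. Over the 117 tested genes of all other lists, markers included, edgeR called 0, with 19 at an unadjusted p-value under 0.05 (6.25% of all tested genes), limma voom called 0 and DESeq2 called the 2 cDC1 markers given above, of its 58 calls over all genes.

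**Figure D5:**
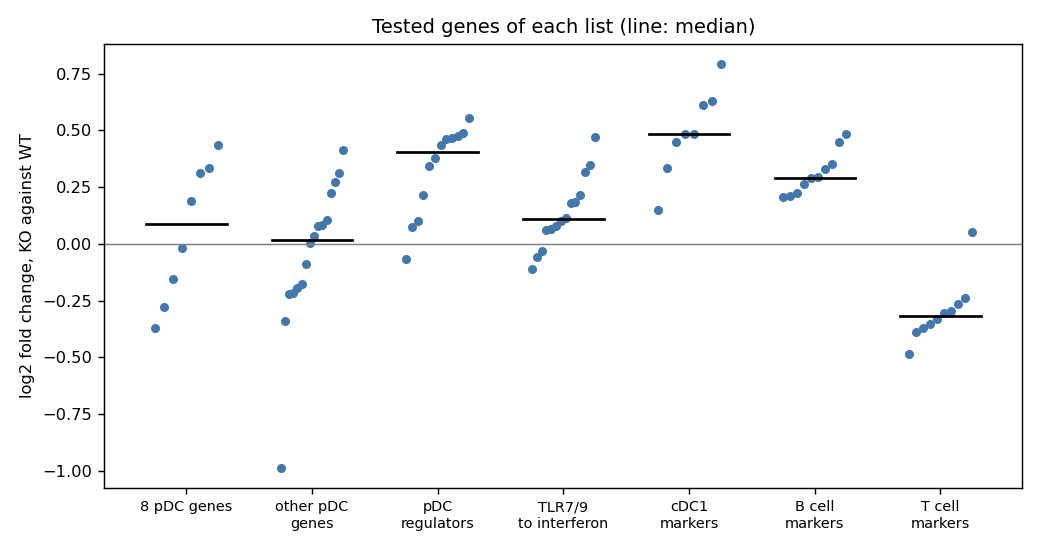
Log2 fold change of KO against WT (points, 1 per tested gene, ordered within a list, horizontal line at the median) for the 8 pDC genes, the 3 further pDC lists and markers of cDC1, B cells and T cells. The 8 genes spread on both sides of 0 (-0.37 to 0.43), with the B cell markers between 0.21 and 0.48 and the T cell markers between -0.48 and 0.052.

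Siglech was compared with 12993 other tested genes of at least 1 CPM by Pearson's r of log2 CPM over the 6 libraries, as a description. The most alike were Zfp595 (r = 0.993), Anks6, Sh2b3, Slc31a2, 3300005D01Rik, Adgrg6, Coro2b, Zfp316, Rassf6 and Cd300lb (r = 0.980). The points share their libraries and scaling, and no p-value was computed. None of the other 7 pDC genes and no gene of the lists above was among these 10. Absence from the first 10 of 12993 genes does not show that a gene is unlike Siglech. Its highest libraries, KO 1, KO 2 and WT 1, were also those of Tcf4, Spib and Ly6d.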

How the data were processed

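RNA-seq libraries of 3 WT and 3 KO samples of CD8a+ spleen leukocytes were analysed. For each library the authors deposited a table of expected counts by Ensembl gene, without normalization. The unit was read from the values, of which 3527 to 4925 per library were not whole. The submitters' processing notes name GRCm38 (mm10), while the aligner, the counter and the use of strand are not given in the sources used here. Symbols were found for 98.75% of gene identifiers in GENCODE M21.

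Counts were rounded and fitted in R 4.3.3 with edgeR 4.0.16 (TMM, filterByExpr at counts of 10 per library and 15 in total, quasi-likelihood test, Benjamini-Hochberg adjustment over 13024 genes, threshold 0.05). Standard errors were taken from the fold change and the F statistic. The alternatives were DESeq2 1.42.0, limma voom (limma 3.58.1), upper-quartile normalization, other filters, a replicate block, marker covariates and leaving out each library. Sums of marker genes used 10 B cell and 10 T cell genes, and log2 CPM used a prior count of 2. The procedure was tested on simulated data.

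The genes and lists were chosen with earlier results of these data known. The naming rule took all 8 genes, the genes of other lists that passed the threshold or else the 3 with the highest mean CPM, and the 10 genes most like Siglech. Some genes that the rule or the lists take are not reported here. Libraries of a genotype differed by more than sampling noise (chi-square over its degrees of freedom 6.17 to 21.8).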

Additional observations from a re-analysis of the deposited data

How the results depend on the processing

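No alternative called any of the 8 pDC genes. The number of all genes called, 4 in the comparison as reported, was 58 with DESeq2, 12 without a filter on low counts, 9 with the replicate block, 30 with the B cell marker covariate and 7 with the T cell marker covariate, and ran from 2 to 94 over the fits that each left out 1 library. The replicate block changed no call among the 8 genes or the other lists. Same-numbered libraries deviated with correlations of -0.010, -0.20 and 0.11, and differently numbered ones with -0.26 to 0.29. These values gave no sign of pairing by number. They cannot exclude it, because other differences between the libraries enter them. The T cell marker covariate was added after the values were seen. Of the genes of the other lists, 0 were called as reported, 2 with DESeq2 (the cDC1 markers Naaa and Cadm1), 3 with the B cell marker covariate (the macrophage markers Hmox1, Vcam1 and C1qb) and from 0 to 8 with 1 library left out. Without KO replicate 3, 94 genes were called in all, 8 of them in the other lists (7 red pulp macrophage markers and Cadm1). At an unadjusted p-value under 0.05, 0 of the 8 pDC genes became 4 without KO replicate 3 (Spib, Ccr9, Ly6d and Tcf4, against 14.1% of all genes in that fit), 3 without WT replicate 1 (Ccr9, Runx2 and Tcf4, against 9.25%), 2 with the T cell marker covariate (Spib and Ly6d, against 6.18%) and 1, Ccr9, with the B cell marker covariate (against 7.72%) or without a filter (against 5.41%), with a lowest adjusted p = 0.21 by edgeR over all alternatives.

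With the T cell marker covariate the log2 fold change turned to -0.18 for Tcf4, -0.29 for Ly6d, -0.31 for Spib and 0.096 for Pacsin1. It turned to 0.032 for Pacsin1 without KO replicate 2 and to 0.16 for Siglech without KO replicate 3. Ccr9, Runx2 and Klk1 kept their direction in all 14 alternatives. The cause of these turns was not tested. The number of libraries, 3 a genotype, limits the precision of each value.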

Other observations

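The CD8a+ isolate also held transcripts of other spleen cells. For red pulp macrophage markers the median KO to WT difference was 1.18 on the log2 scale, with 8 of 8 higher in KO, 7 of 8 at an unadjusted p-value under 0.05 (6.25% of all tested genes) and 0 at the adjusted threshold by edgeR. Without KO 3, 7 of the 8 were called (Axl, Adgre1, Hmox1, Vcam1, C1qa, C1qb and C1qc), in a fit that called 94 of 13302 genes. With the B cell marker covariate, 3 were called (Hmox1, Vcam1 and C1qb), in a fit that called 30 of 13024 genes. Their summed level was 477 to 695 CPM in WT and 614 to 1725 CPM in KO libraries. The same median was 0.70 for neutrophil markers (7 of 7 higher), 1.11 for erythroid markers (8 of 8), 0.60 for cDC2 markers (5 of 5), 0.25 for monocyte markers (6 of 8), 0.18 for NK cell markers (4 of 6) and 0.15 for plasma cell markers (4 of 5), and 0 of these genes passed the adjusted threshold. With the B cell marker covariate the medians were 0.86 for red pulp macrophage, 0.43 for neutrophil, 0.88 for erythroid, 0.41 for cDC2, 0.026 for monocyte, 0.047 for NK cell and -0.014 for plasma cell markers (2 of 5 higher). The sums of neutrophil, cDC2, red pulp macrophage, monocyte and plasma cell markers were, like those of B cell markers, highest in KO 2, KO 1 and WT 1, in varying order, the libraries that were also highest in Tcf4, Spib and Ly6d. Mean deviations of cDC2, neutrophil and monocyte markers had the sign of these 3 genes in all 6 libraries, and so had those of NK cell markers, so the likeness to B cell markers is shared by other lists. The part of these cells in the levels of the 8 pDC genes was not tested.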
